A study of Rattus norvegicus with 119 samples.

Results

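The 10 genes described here, Pop5, Cyp2j4, Ephx2, Akr1b10, Pbld1, Scand1, Nit2, Htra4, Sgms2 and Ccdc107, were selected on their measured hippocampal levels in control rats, which differed strongly between strains. Each was taken as the probe set whose only annotated symbol is that gene, which gave 10 probe sets of 29214 on the array. Of all probe sets, 15310 carried 1 symbol, covering 14506 genes, 323 carried several and 13581 carried none in the annotation used. All values are log2 probe set intensities, so a difference of 1 is a doubling. Because the strain contrast in control animals chose the genes, their control levels are given as a description, and strain differences were tested in the lead-exposed animals only.

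The study measured hippocampal RNA of 96 lead-exposed and 23 control rats, 1 array per animal, after developmental lead exposure in Long Evans, Sprague Dawley and Fischer rats of both sexes. Lead acetate was given in the food at 250 or 750 ppm, either perinatally (to the dam from 10 days before breeding until the pups were weaned) or postnatally (from birth to postnatal day 45), and the remaining animals ate control food. All hippocampi were collected at postnatal day 55. The 24 exposed groups held 4 animals each, giving 32 exposed animals per strain, and the controls were 8 Long Evans, 7 Sprague Dawley and 8 Fischer rats. Fischer is an inbred strain, whereas Long Evans and Sprague Dawley are kept as outbred stocks. No genetic change or transgene was described in any group, and the labels do not state litters, so the p-values measure only the spread between these samples, which may include littermates.

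Inbred strains carry a single fixed set of alleles, whereas animals of an outbred stock can differ from each other at many loci. When a variant alters how much transcript a nearby gene makes, the transcript level can differ sharply between strains and, in an outbred stock, fall into classes among animals of the same stock. The genes in this set have unrelated functions. Cyp2j4 encodes a cytochrome P450 epoxygenase that converts arachidonic acid to epoxides, and Ephx2 encodes the soluble epoxide hydrolase that turns such epoxides into diols, a pair of steps in a lipid signalling route active in brain vessels and astrocytes. Pop5 is a protein subunit shared by RNase P and RNase MRP, which process precursor tRNA and rRNA. Akr1b10 is an aldo-keto reductase that reduces reactive aldehydes, Nit2 is the omega-amidase that breaks down the keto acid formed from glutamine by transamination, and Sgms2 is a sphingomyelin synthase of the plasma membrane. Htra4 is a secreted serine protease of the HtrA family, Scand1 is a SCAN domain protein without zinc fingers, and Pbld1 and Ccdc107 are named for a phenazine biosynthesis-like domain and a coiled coil.

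The genes lie on 9 chromosomes in RefSeq's GRCr8 rat assembly, only Cyp2j4 and Ccdc107 sharing one. RefSeq promoter sequence was at hand for 8 of them, all but Ephx2 and Htra4. The 250 bases upstream of the annotated start are shown 5′ to 3′ on the gene's strand for 4 examples, to give the reference sequence of the region where each transcript starts. They are Pop5, set apart in Long Evans, Cyp2j4 and Nit2, set apart in Fischer in opposite directions, and Akr1b10, set apart in Sprague Dawley. The other 4 windows are described by their counts. Capitals mark GGGCGG, the core of a GC box, or CCGCCC, the same motif on the other strand.
Pop5 (chr12:47042033-47042282, minus strand): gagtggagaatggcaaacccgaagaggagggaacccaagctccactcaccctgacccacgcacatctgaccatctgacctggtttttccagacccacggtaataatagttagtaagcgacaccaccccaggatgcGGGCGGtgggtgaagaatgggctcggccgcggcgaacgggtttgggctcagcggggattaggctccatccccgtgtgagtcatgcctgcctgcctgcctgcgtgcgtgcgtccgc
Cyp2j4 (chr5:116323043-116323292, minus strand): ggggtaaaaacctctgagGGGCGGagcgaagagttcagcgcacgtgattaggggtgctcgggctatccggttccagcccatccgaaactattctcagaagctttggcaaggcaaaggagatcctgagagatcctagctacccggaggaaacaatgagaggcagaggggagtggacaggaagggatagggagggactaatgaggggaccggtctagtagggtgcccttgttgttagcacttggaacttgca
Akr1b10 (chr4:64005382-64005631, plus strand): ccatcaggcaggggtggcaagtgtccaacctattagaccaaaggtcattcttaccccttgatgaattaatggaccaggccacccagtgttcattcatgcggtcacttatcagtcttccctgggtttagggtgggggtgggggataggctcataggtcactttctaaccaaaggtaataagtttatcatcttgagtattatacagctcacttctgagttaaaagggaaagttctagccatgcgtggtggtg
Nit2 (chr11:56832879-56833128, plus strand): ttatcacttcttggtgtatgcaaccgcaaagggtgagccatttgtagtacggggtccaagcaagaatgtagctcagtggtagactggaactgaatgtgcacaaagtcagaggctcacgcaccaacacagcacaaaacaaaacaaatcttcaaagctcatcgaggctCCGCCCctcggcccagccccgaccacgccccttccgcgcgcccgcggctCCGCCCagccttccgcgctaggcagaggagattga
Of the 8 windows, those of Pop5, Cyp2j4 and Scand1 held 1 GGGCGG match each on either strand, that of Nit2 held 2 on the other strand and those of Akr1b10, Pbld1, Sgms2 and Ccdc107 held none, while 30.5% of all 33469 promoter windows of this length held at least 1 on either strand. TATAAA (12.9% of all windows, either strand) occurred once in the Ccdc107 window, and CCAAT (34.0%) occurred once in each of the Pbld1, Scand1 and Ccdc107 windows. Neither occurred in the 4 windows shown. GC content was 61.2% for Pop5, 55.2% for Cyp2j4, 46.8% for Akr1b10 and 56.8% for Nit2, against a median of 51.2%. These matches describe the reference letters and were not compared between strains.

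Array medians ranged from 7.36 to 7.57 log2 and single values from 2.29 to 14.18. Of 8 hippocampal neuron markers, the median member stood at the 96.9th percentile of all probe sets. No other tissue was measured, so this shows neuronal RNA and does not test the hippocampal label. X-linked genes (Eif2s3, Ddx3x and Pbdc1) read opposite to the sex label in 8 arrays, 3 Long Evans, 5 Sprague Dawley and 0 Fischer. The strain, lead and spread tests and the level classes were therefore repeated without these arrays. Because the animals of a group bear successive label numbers (4, except for the 3 Sprague Dawley male controls, which skip a number) and arrays with the lower and upper numbers of a group differed in many genes, the label numbers were fitted in the strain tests. The hippocampus was measured as bulk tissue, so fewer cells of a type and less RNA per cell cannot be told apart. Probe sequences were not used here, so a strain difference in transcript level and one in probe binding cannot be told apart either.

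To ask whether the strain differences seen in controls were also present in animals that had not been used to choose the genes, the 32 exposed animals of each strain were compared. In Long Evans against Fischer, 8 of the 10 genes passed the test at an adjusted p below 0.05 (limma), 4 higher and 4 lower, beside 61% of all probe sets. With a difference of at least 1 on the log2 scale, 5 of the 10 passed, beside 0.325% of all probe sets. In Sprague Dawley against Fischer, 9 passed, 4 higher and 5 lower (40.8% of all), and 6 did so with a difference of at least 1 (0.127% of all). In Long Evans against Sprague Dawley, 8 passed, 5 higher and 3 lower (61.4% of all), and 4 did so with a difference of at least 1 (0.209% of all). The median size of difference over the 10 genes was 0.995, 1.05 and 0.772 in these 3 comparisons, and over all probe sets it was 0.095, 0.060 and 0.095. Passing the test was therefore common on the array, and near its background for these genes in the Long Evans comparisons, whereas differences of at least 1 were rare on the array.

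**Figure D1:**
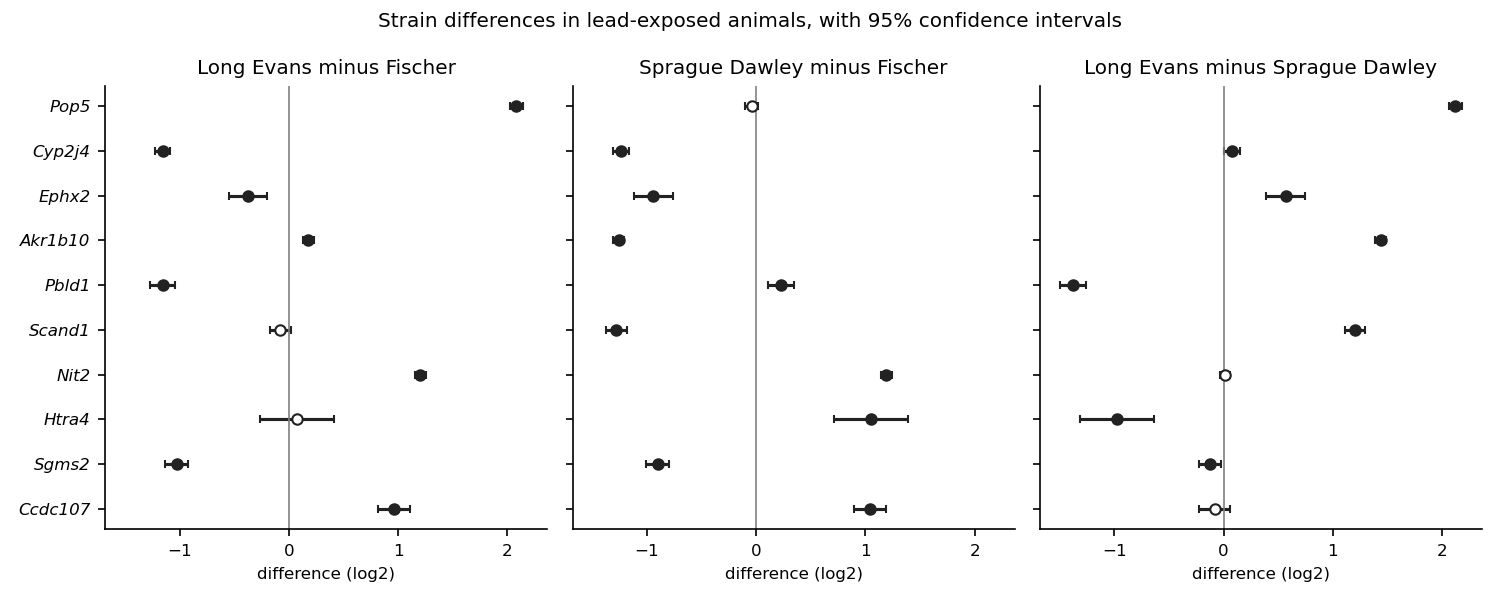
Strain differences (log2, horizontal axis) of the 10 genes in lead-exposed animals, with 95% confidence intervals, for Long Evans minus Fischer, Sprague Dawley minus Fischer and Long Evans minus Sprague Dawley. Open symbols mark differences that did not pass the test, such as Pop5 in Sprague Dawley against Fischer (-0.04), while Pop5 stood at 2.08 and 2.12 in the comparisons that involve Long Evans.

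Pop5 separated Long Evans from the other strains. Its exposed levels ran from 9.90 through a median of 10.22 to 10.47 in Long Evans, from 7.84 through 8.08 to 8.29 in Sprague Dawley and from 7.73 through 8.16 to 8.28 in Fischer. Every Long Evans animal lay above every animal of the other strains, including the arrays that read opposite to their sex label, and Sprague Dawley and Fischer overlapped throughout. The difference was 2.08 ± 0.03 (SE, adjusted p = 1.06e-63, limma), or 4.23-fold, in Long Evans against Fischer, and 2.12 ± 0.03 (adjusted p = 2.67e-64, limma), or 4.35-fold, in Long Evans against Sprague Dawley. By size these ranked 12th and 5th on the whole array. Sprague Dawley and Fischer differed by -0.04 (95% confidence interval -0.10 to 0.02, adjusted p = 0.289, limma), and by -0.11 within the upper label numbers (adjusted p = 0.0201, limma). Across the 4 exposures the Long Evans minus Fischer difference of Pop5 ranged from 2.01 to 2.18, and it was 2.08 in males and 2.08 in females. In controls Pop5 ran from 10.01 through 10.22 to 10.41 in Long Evans, from 7.97 through 8.09 to 8.17 in Sprague Dawley and from 8.04 through 8.17 to 8.23 in Fischer.

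Cyp2j4, Nit2 and Sgms2 set Fischer apart from both outbred strains. Cyp2j4, the epoxygenase, ran from 6.18 through 6.43 to 6.73 in exposed Long Evans, from 5.99 through 6.35 to 6.67 in exposed Sprague Dawley and from 7.24 through 7.64 to 8.01 in exposed Fischer. Every Fischer animal lay above every animal of the other strains. The differences were -1.16 ± 0.04 for Long Evans minus Fischer (adjusted p = 3.21e-41, limma) and -1.24 ± 0.04 for Sprague Dawley minus Fischer (adjusted p = 5.53e-43, limma), a 2.23-fold and a 2.36-fold higher level in Fischer. Nit2, the omega-amidase, went the other way, with 9.37 through 9.71 to 9.96 in exposed Long Evans, 9.54 through 9.71 to 9.81 in exposed Sprague Dawley and 8.21 through 8.54 to 8.72 in exposed Fischer. All Fischer animals lay below all others. Nit2 was higher than in Fischer by 1.21 ± 0.02 in Long Evans (adjusted p = 1.37e-53, limma) and by 1.19 ± 0.02 in Sprague Dawley (adjusted p = 4.34e-53, limma), while Long Evans and Sprague Dawley differed by 0.01 (95% confidence interval -0.04 to 0.06, adjusted p = 0.667, limma). Sgms2, the sphingomyelin synthase, ran from 6.86 through 7.26 to 7.82 in exposed Long Evans, from 6.96 through 7.39 to 7.81 in exposed Sprague Dawley and from 7.96 through 8.31 to 8.74 in exposed Fischer. The Fischer animals again lay above all others, with differences of -1.03 ± 0.05 in Long Evans minus Fischer (adjusted p = 8.69e-29, limma) and -0.90 ± 0.05 in Sprague Dawley minus Fischer (adjusted p = 2.7e-25, limma). Between Long Evans and Sprague Dawley, Cyp2j4 (0.08, adjusted p = 0.0497, limma) and Sgms2 (-0.13, adjusted p = 0.031, limma) lay close to the threshold. Of the alternatives run, 4 of 17 kept the Cyp2j4 call and 8 of 18 kept the Sgms2 call. Among the losses, that of Cyp2j4 came with any 1 replicate number left out (0.070 to 0.090). That of Sgms2 came without replicate 1 (-0.09) or replicate 3 (-0.10).

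Akr1b10 and Scand1 were low in Sprague Dawley. Akr1b10, the aldehyde-reducing enzyme, ran from 9.89 through 10.09 to 10.33 in exposed Long Evans, from 8.43 through 8.64 to 8.87 in exposed Sprague Dawley and from 9.64 through 9.89 to 10.26 in exposed Fischer. The Sprague Dawley animals lay below all others, and Long Evans and Fischer overlapped. Akr1b10 differed by -1.26 ± 0.02 in Sprague Dawley minus Fischer (adjusted p = 5.02e-54, limma) and by 1.44 ± 0.02 in Long Evans minus Sprague Dawley (adjusted p = 1.44e-58, limma), a 2.71-fold higher level in Long Evans. Its smaller difference of 0.18 ± 0.02 in Long Evans minus Fischer (adjusted p = 2.9e-09, limma) was 0.31 among the upper and 0.05 among the lower label numbers, the second not passing the test (adjusted p = 0.247, limma). Scand1, which can pair with other SCAN domain factors, ran from 10.14 through 10.90 to 11.62 in exposed Long Evans, from 9.36 through 9.68 to 9.93 in exposed Sprague Dawley and from 10.52 through 10.95 to 11.78 in exposed Fischer. No Sprague Dawley animal reached the lowest animal of either other strain. Scand1 differed by -1.28 ± 0.05 in Sprague Dawley minus Fischer (adjusted p = 2.39e-36, limma) and by 1.20 ± 0.05 in Long Evans minus Sprague Dawley (adjusted p = 5.27e-35, limma). Its Sprague Dawley minus Fischer difference was -0.88 within the upper and -1.68 within the lower label numbers. Long Evans minus Fischer was -0.08 (95% confidence interval -0.17 to 0.02, adjusted p = 0.151, limma), but 0.22 within the upper (adjusted p = 0.0166, limma) and -0.37 within the lower label numbers (adjusted p = 2.09e-04, limma).

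Pbld1 was low in Long Evans and Ccdc107 was low in Fischer. Pbld1 ran from 6.66 through 6.96 to 7.80 in exposed Long Evans, from 8.12 through 8.42 to 8.94 in exposed Sprague Dawley and from 7.91 through 8.21 to 8.75 in exposed Fischer. The highest Long Evans animal stayed below the lowest of the other strains. Pbld1 differed by -1.15 ± 0.06 in Long Evans minus Fischer (adjusted p = 1.39e-28, limma), by -1.38 ± 0.06 in Long Evans minus Sprague Dawley (adjusted p = 3.13e-33, limma) and by 0.23 ± 0.06 in Sprague Dawley minus Fischer (adjusted p = 0.00108, limma). The last was between 0.11 and 0.38 over the 4 exposures and passed at 1 of them. Ccdc107 ran from 10.19 through 11.02 to 11.31 in exposed Long Evans, from 9.82 through 11.21 to 11.55 in exposed Sprague Dawley and from 9.61 through 9.99 to 10.40 in exposed Fischer. Most outbred animals lay above the Fischer range, but 3 from each outbred strain did not. Ccdc107 was higher than in Fischer by 0.96 ± 0.07 in Long Evans (adjusted p = 6.58e-20, limma) and by 1.04 ± 0.07 in Sprague Dawley (adjusted p = 3.98e-21, limma), the second being 0.64 at perinatal 250 ppm (adjusted p = 5.59e-04, limma). Its probe set is tied to the gene through a transcript record outside RefSeq, and the gene overlaps Arhgef39, so the assignment is uncertain. The probe set annotated to Arhgef39 itself differed by 0.01 in Long Evans minus Fischer and 0.06 in Sprague Dawley minus Fischer.

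Ephx2 and Htra4 differed in mean between strains, but their animals overlapped. Ephx2, the soluble epoxide hydrolase, ran from 5.64 through 7.23 to 7.59 in exposed Long Evans, from 5.60 through 6.27 to 7.47 in exposed Sprague Dawley and from 7.12 through 7.36 to 7.68 in exposed Fischer. Inside the exposed Fischer range lay 17 of 32 Long Evans animals and 1 of 32 Sprague Dawley animals, and the remaining animals of both outbred strains lay below it. Ephx2 differed by -0.37 ± 0.09 in Long Evans minus Fischer (adjusted p = 2.01e-04, limma), by -0.94 ± 0.09 in Sprague Dawley minus Fischer (adjusted p = 9.9e-15, limma) and by 0.57 ± 0.09 in Long Evans minus Sprague Dawley (adjusted p = 7.65e-08, limma). These values depended on the exposure. Long Evans minus Sprague Dawley was 1.31 at postnatal 250 ppm (adjusted p = 8.63e-09, limma) and 0.20 at perinatal 250 ppm (adjusted p = 0.422, limma), and its sign turned at postnatal 750 ppm (-0.11, adjusted p = 0.652, limma). Sprague Dawley minus Fischer was -0.56 at postnatal 750 ppm (adjusted p = 0.0229, limma) and reached -1.33 at postnatal 250 ppm. Long Evans minus Fischer was -0.67 at postnatal 750 ppm, -0.32 at perinatal 750 ppm (adjusted p = 0.167, limma) and -0.02 at postnatal 250 ppm (adjusted p = 0.949, limma), and it did not pass the test within the lower label numbers (-0.21, adjusted p = 0.165, limma). Htra4, the secreted protease, ran from 6.85 through 7.69 to 8.45 in exposed Long Evans, from 6.66 through 8.85 to 10.46 in exposed Sprague Dawley and from 6.75 through 7.70 to 8.14 in exposed Fischer. The exposed Sprague Dawley animals covered the whole range of the other strains and extended above it. Htra4 was higher in Sprague Dawley than in Fischer by 1.05 ± 0.17 (adjusted p = 2.94e-07, limma), lower in Long Evans than in Sprague Dawley by the mean of all exposures (-0.98 ± 0.17, adjusted p = 7.62e-07, limma), and Long Evans minus Fischer was 0.07 (95% confidence interval -0.26 to 0.41, adjusted p = 0.722, limma). The fit gave all strains a common variance, while the SD of exposed Htra4 was 0.37 in Long Evans, 1.16 in Sprague Dawley and 0.39 in Fischer. These errors and intervals therefore do not follow the spread of each strain. The Sprague Dawley minus Fischer difference of Htra4 was 0.04 at postnatal 750 ppm (adjusted p = 0.967, limma) and 2.02 at perinatal 750 ppm (adjusted p = 4.41e-06, limma), and it was 0.76 in males and 1.34 in females. Long Evans minus Sprague Dawley was -1.52 at perinatal 750 ppm (adjusted p = 2.11e-04, limma), but -0.76 at perinatal 250 ppm (adjusted p = 0.0826, limma) and -0.46 at postnatal 750 ppm (adjusted p = 0.306, limma) did not pass. Sprague Dawley minus Fischer was 1.54 within the upper and 0.56 within the lower label numbers.

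**Figure D2:**
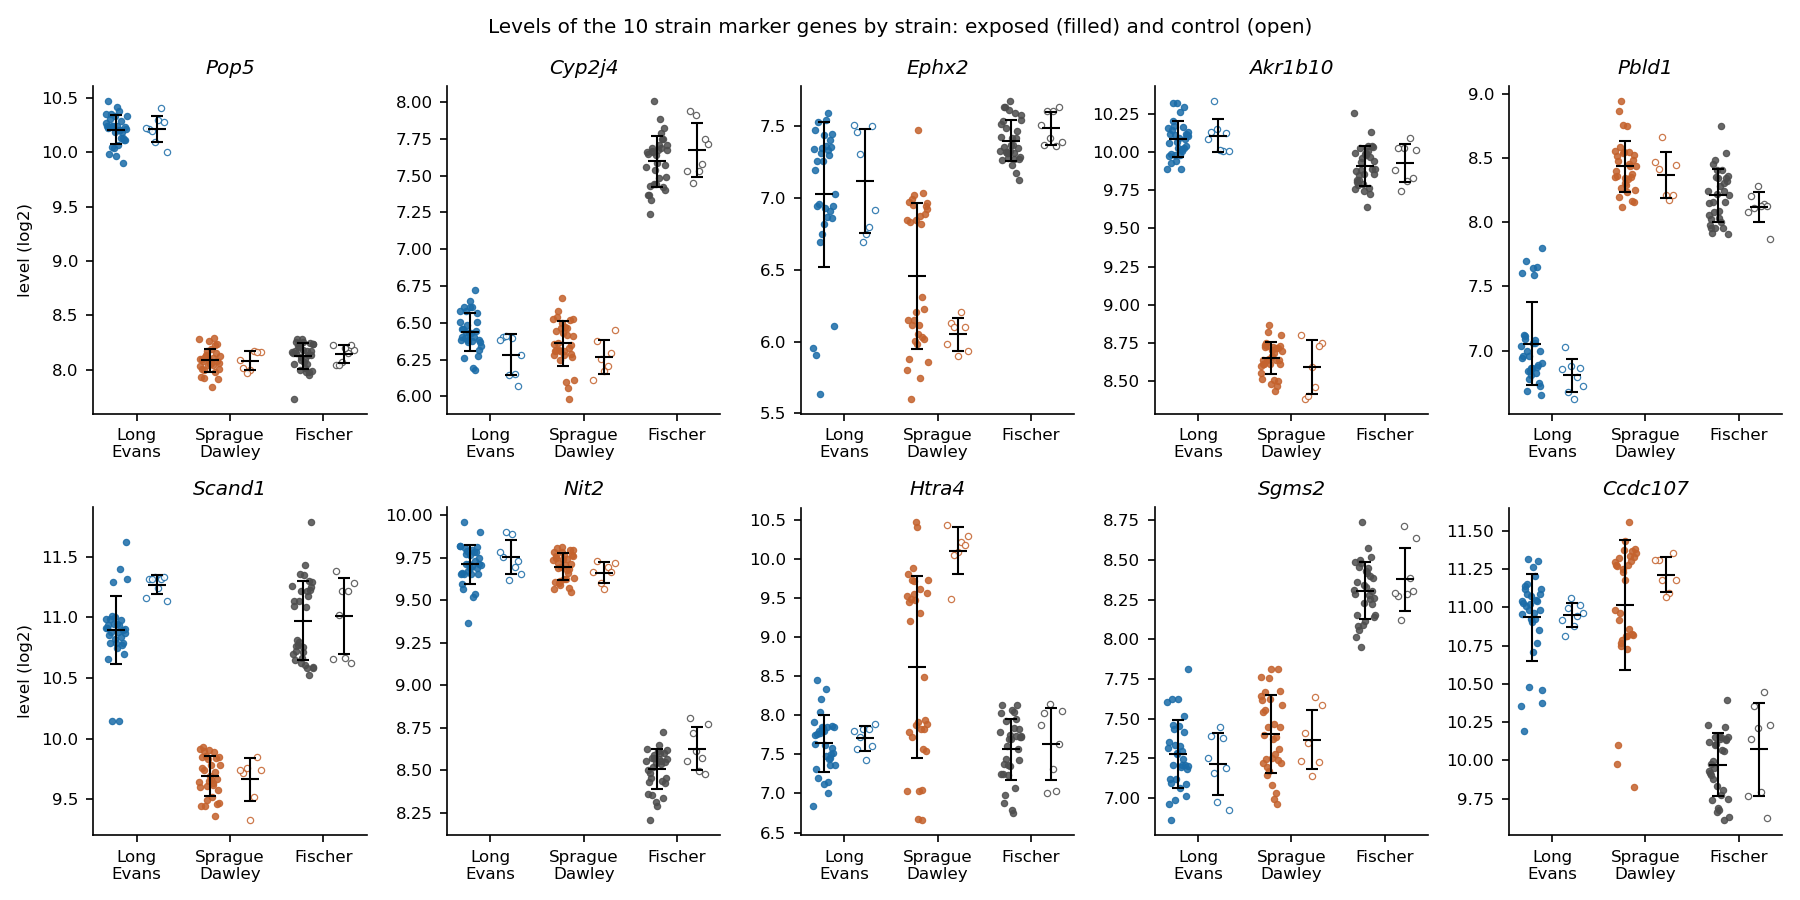
Level (log2 intensity, vertical axis) of each of the 10 genes in every animal, 1 panel per gene, for Long Evans, Sprague Dawley and Fischer, with exposed animals as filled points, controls as open points and bars for mean ± SD. Pop5 shows a single high strain with no overlap, while Htra4 in exposed Sprague Dawley spans 6.66 to 10.46 and its 7 controls lie between 9.48 and 10.43.

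Counted by overlap, 5 of the 10 genes had no exposed Long Evans animal inside the Fischer range (Pop5, Cyp2j4, Pbld1, Nit2 and Sgms2), beside 0.541% of all probe sets. In Sprague Dawley against Fischer there were also 5 (Cyp2j4, Akr1b10, Scand1, Nit2 and Sgms2; 0.383% of all), and in Long Evans against Sprague Dawley 4 (Pop5, Akr1b10, Pbld1 and Scand1; 1.87% of all). In controls, which chose the genes, the counts were 6 (3.71% of all), 8 (2.54% of all) and 7 (7.85% of all). The control counts rest on 7 or 8 animals per strain and the exposed counts on 32, and the share of all probe sets without overlap was higher in controls in each comparison. Ephx2, Htra4 and Ccdc107 belonged to control counts and to none of the exposed ones. Control Ephx2 ran from 6.69 through 7.11 to 7.51 in Long Evans, from 5.90 through 6.10 to 6.21 in Sprague Dawley and from 7.36 through 7.47 to 7.63 in Fischer. Control Htra4 ran from 7.42 through 7.76 to 7.89 in Long Evans, from 9.48 through 10.17 to 10.43 in Sprague Dawley and from 7.01 through 7.75 to 8.14 in Fischer. So exposed Sprague Dawley animals were found at both low and high levels of both genes, whereas all Sprague Dawley controls were low for Ephx2 and high for Htra4.

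To compare inbred with outbred animals, the spread within treatment groups, controls included, was computed after fitting the label numbers. Ephx2 had an SD of 0.469 in Long Evans, 0.355 in Sprague Dawley and 0.0963 in Fischer, that is 4.87 and 3.69 times the Fischer value. These ratios stood at the 99.99th and 99.97th percentile of all probe sets. Without the label number term the Fischer SD of Ephx2 was 0.149 and the ratios were 3.11 and 2.51. Htra4 had an SD of 0.324 in Long Evans, 1.01 in Sprague Dawley and 0.346 in Fischer, so the wide spread was that of Sprague Dawley, at 2.91 times Fischer (2.76 times without the label number term). Ccdc107 had an SD of 0.257 in Long Evans, 0.363 in Sprague Dawley and 0.163 in Fischer. Cyp2j4 and Nit2 were the reverse, with Cyp2j4 at 0.120, 0.137 and 0.172 and Nit2 at 0.0920, 0.0709 and 0.117 in Long Evans, Sprague Dawley and Fischer. Across the set, 7 of 10 genes were wider in Long Evans than in Fischer, against 58.1% of all probe sets, and 6 of 10 were wider in Sprague Dawley than in Fischer, against 47.0%. The median ratio to Fischer was 1.38 in Long Evans and 1.28 in Sprague Dawley for the 10 genes, and 1.05 and 0.983 for all probe sets. These figures depend on the label number term. Without it 5 of 10 were wider in Long Evans than in Fischer, against 33.3% of all probe sets, and 5 of 10 in Sprague Dawley, against 28.9%. The median ratios were then 0.930 and 0.995 for the 10 genes and 0.882 and 0.859 for all probe sets, and the Long Evans ratio of Scand1 was 0.696 and that of Akr1b10 0.788, in place of 1.86 and 1.31.

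Spreads were tested on absolute deviations (limma), first with animals taken as independent. On simulated data this test called too many unchanged probe sets, so its calls are given as a description. Those that also passed with group as a random block are named after them. Both fits included the controls, whose levels chose the genes, so neither set of calls is independent of that choice. Without the block, Ephx2 was the 1 gene of 10 with a different spread in Long Evans than in Fischer (0.27 ± 0.05, adjusted p = 1.12e-04), beside 4.36% of all probe sets. In Sprague Dawley against Fischer, 4 passed, beside 1.4% of all, namely Htra4 (0.52, adjusted p = 6.45e-05), Ccdc107 (0.16, adjusted p = 0.0083), Ephx2 (0.20, adjusted p = 0.0185) and, narrower, Nit2 (-0.05, adjusted p = 0.0452). In Long Evans against Sprague Dawley, Htra4 passed alone (-0.52, adjusted p = 1.19e-05), beside 5.49% of all. Deviations within a group depend on each other. With group as a random block Ephx2 in Long Evans against Fischer (adjusted p = 0.0020; 1.38% of all) and Htra4 in Sprague Dawley against Fischer (adjusted p = 0.0024; 0.267% of all) and in Long Evans against Sprague Dawley (adjusted p = 3.95e-04; 2.24% of all) still passed. Ccdc107 (adjusted p = 0.0557), Ephx2 (adjusted p = 0.116) and Nit2 (adjusted p = 0.213) in Sprague Dawley against Fischer did not. Without replicate 2 or replicate 3 of every group, the Sprague Dawley against Fischer count was 2 of 10, beside 1.6% and 1.78% of all probe sets. Without replicate 4 the count was 2 in Long Evans against Fischer (3.52% of all) and 2 in Long Evans against Sprague Dawley (4.35% of all).

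**Figure D3:**
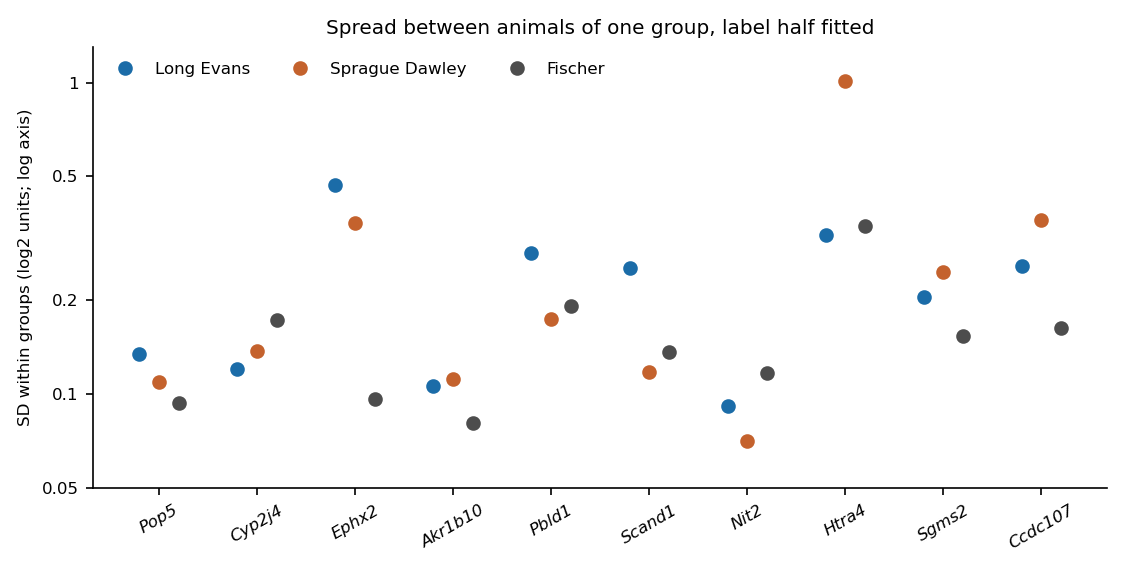
SD within treatment groups (log2 units, log axis) of the 10 genes in Long Evans, Sprague Dawley and Fischer, after fitting the label numbers. Ephx2 stands at 0.469 in Long Evans and 0.355 in Sprague Dawley, against 0.0963 in Fischer, and Htra4 at 0.324, 1.01 and 0.346.

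Levels were then sorted within each strain to see whether they parted into separate classes, defined as a gap of at least 0.5 log2 with at least 3 animals on either side after centring on the label numbers. These classes are a description, since the genes were proposed with their levels in view. In Long Evans 1 of 10 genes parted (Ephx2; 0.123% of all probe sets), in Sprague Dawley 2 (Htra4 and Ccdc107; 0.0377% of all) and in Fischer 0 (0.0479% of all). Without centring the counts were 1 in Long Evans (0.103% of all), 3 in Sprague Dawley, Ephx2 being added (0.0616% of all), and 0 in Fischer (0.178% of all). In these uncentred values the largest gap in Fischer was 0.21 for Scand1, 0.16 for Htra4 and 0.05 for Ephx2. Uncentred Htra4 of Sprague Dawley had 16 animals between 6.66 and 8.49 and 23 between 9.20 and 10.46, with a gap of 0.71. Of the 16, 15 lay between 6.66 and 7.94, and 1 stood alone at 8.49, with a gap of 0.56 below it. Centring put that animal in the upper class, at 8.84. Uncentred Ephx2 of Sprague Dawley had 24 animals between 5.60 and 6.31 and 15 between 6.82 and 7.47, a gap of 0.51 that was not reached after centring. Ephx2 of Long Evans had 4 animals between 5.64 and 6.11 and 36 between 6.69 and 7.59. Ccdc107 of Sprague Dawley had 3 animals between 9.82 and 10.10 and 36 between 10.72 and 11.55. Pbld1 of Long Evans stayed just under the limit, with 34 animals between 6.63 and 7.12, 6 between 7.59 and 7.80 and a gap of 0.47. Without the 8 arrays that read opposite to their sex label, values were centred anew on the arrays kept, and no Long Evans gene parted. None of these 8 arrays was a low Ephx2 animal of Long Evans. Leaving them out cannot narrow the uncentred Ephx2 gap of Long Evans, which was 0.58 with all arrays. In centred values Htra4 of Sprague Dawley then parted into 12 and 22 animals (15 and 24 with all arrays). Ccdc107 of Sprague Dawley parted into 3 and 31 (3 and 36 with all arrays).

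Parted at the uncentred gaps, the upper and lower animals were spread unevenly over the treatments. For Htra4 in Sprague Dawley, 16 of 32 exposed and 7 of 7 control animals were above the gap, the control levels being those that chose the gene. Among the exposed, 5 of 16 postnatal and 11 of 16 perinatal animals were above it, and 8 of 16 at each dose. The male postnatal 750 ppm group had Htra4 levels of 7.83, 7.03, 7.73 and 7.89, and the female perinatal 750 ppm group had 9.88, 9.55, 9.73 and 9.61. The first group lay wholly below the gap and the second wholly above it. The male postnatal 250 ppm group, at 9.81, 7.03, 7.91 and 9.53, lay on both sides. Some exposed animals had arrays that read opposite to their sex label, among them the animal at 7.03 in the first group. Such an array also gave the 1 low Htra4 level among perinatal males at 750 ppm (7.05, others 9.47 to 9.56). Another gave the 1 high level among postnatal females at that dose (9.72, others 7.57 to 7.83). For Ephx2 in Sprague Dawley, 15 of 32 exposed and 0 of 7 control animals were above the gap, among them all 4 of the male perinatal 250 ppm group (6.87, 7.47, 6.84 and 6.85) and all 4 of the male postnatal 750 ppm group (6.82, 6.85, 6.99 and 6.97), but 0 of 8 animals at postnatal 250 ppm. The 2 genes did not part the same animals, as 5 Sprague Dawley animals were above both gaps, 10 above that of Ephx2 alone, 18 above that of Htra4 alone and 6 above neither. The 4 low Ephx2 animals of Long Evans were all exposed (2 male postnatal 750 ppm, 1 female postnatal 750 ppm and 1 female perinatal 250 ppm). The 6 high Pbld1 animals of Long Evans were exposed too, as were 32 of all 40 Long Evans animals. The female postnatal 250 ppm and female perinatal 750 ppm groups held 2 of the 6 each. The male perinatal and male postnatal 250 ppm groups held 1 each. The 3 low Ccdc107 animals of Sprague Dawley were a male (10.10) and 2 females (9.82 and 9.98) of the perinatal 250 ppm groups. For Ephx2 in Sprague Dawley, arrays against their sex label gave the 6.85 among postnatal males at 750 ppm. They also gave the 1 low level among postnatal females at that dose (6.02, others 6.97 to 7.04). The counts by treatment include all arrays and were not repeated without those against their sex label. Control levels chose all of these genes, so a class without controls is not independent of that choice and is no evidence of a link with exposure. Whether animals of 1 group or 1 class share a litter was not tested.

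**Figure D4:**
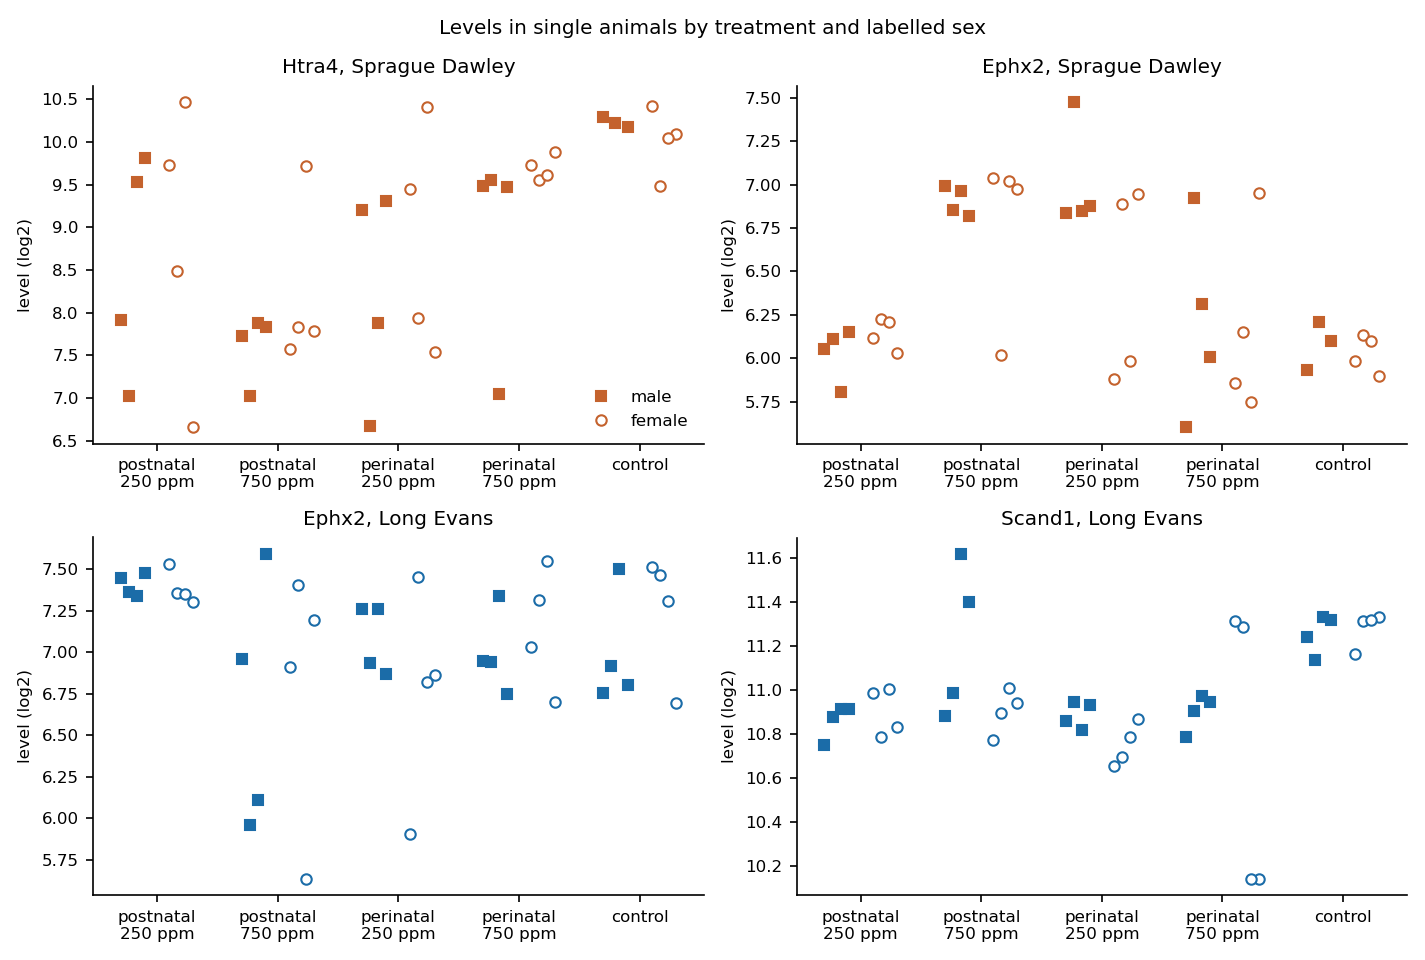
Level (log2 intensity, vertical axis) of Htra4 in Sprague Dawley, Ephx2 in Sprague Dawley, Ephx2 in Long Evans and Scand1 in Long Evans, by treatment, with males as filled squares and females as open circles, and treatments from postnatal 250 ppm to control. Exposed Sprague Dawley animals lie on both sides of the Htra4 and Ephx2 gaps, while all 7 controls are above the Htra4 gap and below the Ephx2 gap. The control levels chose the genes.

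To ask whether lead changed these genes, exposed animals were compared with controls of the same strain and sex. These are the controls whose levels chose the genes, so a control group at an extreme level would itself give an effect, and the lead effects are given as a description. The same holds for strain differences of the lead effect, while the contrasts of doses and of exposure periods use exposed animals alone. In the mean lead effect, 0 of 10 genes passed in Long Evans (0.212% of all probe sets), Sprague Dawley (0.0171% of all) and Fischer (0% of all) by limma, with 3, 2 and 1 genes at an unadjusted p below 0.05, beside 7.45%, 3.64% and 2.5% of all probe sets at that threshold. Over the 24 single contrasts, 0 of 240 tests passed (0.0175% of all), 29 had an unadjusted p below 0.05, beside 4.05% over all probe sets, and the lowest adjusted p was 0.394. The 4 contrasts of a strain and sex share their controls. Scand1 in Long Evans ran from 10.14 through 10.90 to 11.62 in exposed animals, against 11.14 through 11.32 to 11.33 in controls, a mean effect of -0.37 ± 0.09 (95% confidence interval -0.57 to -0.18, adjusted p = 0.098, limma). Without the 3 Long Evans arrays that read opposite to their sex label, all of them controls, the effect was -0.38 (adjusted p = 0.347, limma). The Scand1 effect passed without either of 2 Long Evans female perinatal 750 ppm animals, replicate 2 (-0.40, adjusted p = 0.040, limma) and replicate 3 (-0.40, adjusted p = 0.033, limma), against all controls. That group held Scand1 levels of 10.14, 11.29, 11.31 and 10.14, so its own animals differed by more than the effect. The 7 oligodendrocyte marker probe sets had a median mean lead effect of 0.18 in Long Evans, 4 of 7 passing the test, and their part in the Scand1 value was not tested. Cyp2j4 (0.16 ± 0.05, adjusted p = 0.202, limma) and Pbld1 (0.25 ± 0.11, adjusted p = 0.585, limma) were the other Long Evans genes at an unadjusted p below 0.05.

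Htra4 in Sprague Dawley had an estimated lead effect of -1.50 ± 0.42 (95% confidence interval -2.35 to -0.65, adjusted p = 0.952, limma). In 1 fit of all animals, which gave all strains a common variance, it was -1.50 ± 0.27 (adjusted p = 0.0022, limma). Both values are taken against the 7 controls at 9.48 to 10.43, all high, through which the gene was chosen. The effect is therefore no independent evidence of a fall. By group the Htra4 effect was -2.61 in males at postnatal 750 ppm (adjusted p = 0.798, limma), -1.78 in females at postnatal 750 ppm and -0.32 in females at perinatal 750 ppm. Ephx2 in Sprague Dawley was 0.40 ± 0.15 (adjusted p = 0.999, limma), with 0.93 in males at perinatal 250 ppm. Nit2 in Fischer was -0.12 ± 0.05 (adjusted p = 1, limma). The difference of the mean lead effect between strains passed for 0 of 10 genes in Long Evans against Fischer (0.13% of all probe sets), Sprague Dawley against Fischer (0.0103% of all) and Long Evans against Sprague Dawley (0.0787% of all). Htra4 in Long Evans minus Sprague Dawley, against the same controls, was 1.44 ± 0.38 (adjusted p = 0.169, limma). Contrasts of 750 with 250 ppm (0.0548%, 0.00342% and 0.0719% of all in Long Evans, Sprague Dawley and Fischer), of postnatal with perinatal exposure (0.065%, 0.0411% and 0.00342%) and of males with females, controls included (0.0856%, 0.0171% and 0.0822%), gave 0 of 10 in each strain. The lowest adjusted p among them was 0.195, for Akr1b10 in Long Evans males minus females (-0.09).

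The label numbers moved several of the genes in Fischer. There 8 of 10 differed between animals with upper and lower numbers, 2 higher and 6 lower, beside 60.9% of all probe sets. Scand1 ran from 10.52 to 11.02 in the 20 Fischer animals with upper numbers, against 11.08 to 11.78 in the 20 with lower numbers, without overlap, a difference of -0.58 ± 0.04 (adjusted p = 1.76e-13, limma). Ccdc107 differed by -0.33 ± 0.05 (adjusted p = 8.61e-07, limma), Akr1b10 by -0.20 ± 0.03 (adjusted p = 9.19e-08, limma) and Ephx2 by 0.20 ± 0.03 (adjusted p = 1.50e-06, limma). Htra4 (-0.30), Sgms2 (-0.20), Cyp2j4 (-0.12) and Pop5 (0.09) passed with smaller effects or larger errors, while Nit2 (-0.07, adjusted p = 0.0934, limma) and Pbld1 (0.04, adjusted p = 0.605, limma) did not. In Sprague Dawley only Scand1 passed (0.22 ± 0.04, adjusted p = 7.63e-05, limma; 18.9% of all probe sets), in the opposite direction to Fischer, and in Long Evans 0 passed (lowest adjusted p = 0.53, limma; 0.0993% of all). In Fischer 7 of 7 astrocyte markers were higher (median 0.22) and 7 of 7 meningeal markers lower (median -0.30) in the upper numbers, and their part in these values was not tested. What the label numbers stand for is not given in the sources used here.

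**Figure D5:**
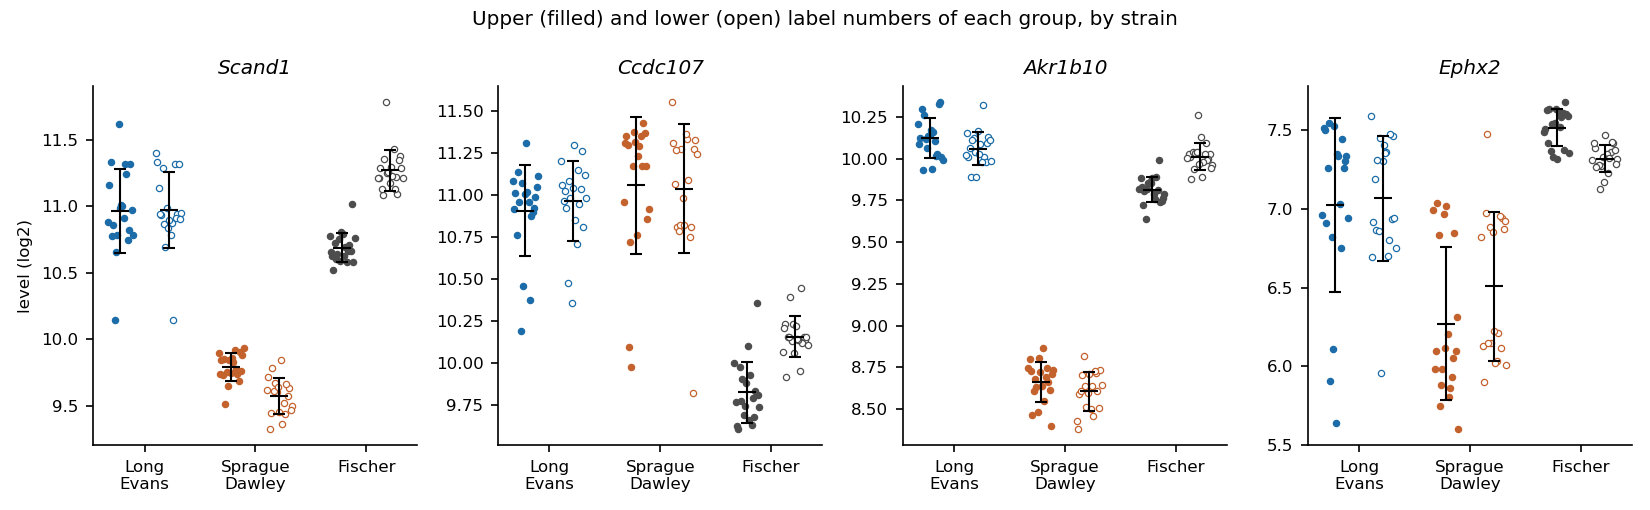
Level (log2 intensity, vertical axis) of Scand1, Ccdc107, Akr1b10 and Ephx2 in Long Evans, Sprague Dawley and Fischer animals with upper (filled) and lower (open) label numbers, with mean ± SD. Scand1 of Fischer separates into 10.52 to 11.02 and 11.08 to 11.78, whereas the Long Evans animals overlap.

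Neighbouring genes were examined in exposed animals, to see whether the strain differences reached them. On either side of each gene, the 5 nearest annotated genes with a probe set of 1 symbol were taken. Annotated genes without such a probe set were passed over, so not every gene in these stretches was measured. Of the 106 probe sets taken, none differed by at least 1 between any pair of strains (0.202% of all probe sets with 1 symbol), and 1 differed by at least 0.5 (1.68%). This was Cyp2j10, another cytochrome P450 of the same subfamily beside Cyp2j4, at -0.25 ± 0.04 in Long Evans minus Fischer, -0.54 ± 0.04 in Sprague Dawley minus Fischer (adjusted p = 1.09e-20, limma) and 0.29 in Long Evans minus Sprague Dawley. Cyp2j10 and Cyp2j4 were both highest in Fischer, and whether their probes share target sequence was not tested.

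In the pathway lists around the genes, the share that passed is to be read against 61% of all probe sets in Long Evans minus Fischer, 40.8% in Sprague Dawley minus Fischer and 61.4% in Long Evans minus Sprague Dawley. Of 15 measured epoxygenases, epoxide hydrolases and partners, Cyp2j4 and Ephx2 included, 2 were higher and 7 lower in Long Evans than in Fischer, and 2 were higher and 5 lower in Sprague Dawley than in Fischer, shares close to those of all probe sets. Ephx1, the microsomal epoxide hydrolase, was -0.30 and Cyp2c6v1, a P450 of another subfamily, was -0.29 in Long Evans minus Fischer. Of 10 RNase P and RNase MRP subunits, 3 were higher and 2 lower in Long Evans than in Fischer, 0 were higher and 4 lower in Sprague Dawley than in Fischer, and 5 were higher and 2 lower in Long Evans than in Sprague Dawley. Beside Pop5 at 2.12, the subunits Rpp25 (0.29), Rpp38 (0.29) and Rpp21 (0.23) were higher in Long Evans than in Sprague Dawley. Of 17 aldo-keto reductase probe sets, 2 were higher and 9 lower in Long Evans than in Fischer, and 1 was higher and 8 lower in Sprague Dawley than in Fischer. Akr1c15 was -0.40 in Long Evans minus Fischer and -0.44 in Sprague Dawley minus Fischer, and Akr1c19 was -0.31 and -0.30 in the same comparisons. Akr1b7, a close relative of Akr1b10 that lies beside it on the chromosome, was -0.29 in Sprague Dawley minus Fischer. Whether the probes of Akr1b7 and Akr1b10 share target sequence was not tested.

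Among 12 genes of sphingomyelin synthesis and breakdown, 6 were higher and 2 lower in Long Evans than in Fischer, and 4 were higher and 4 lower in Sprague Dawley than in Fischer. Smpd2, a neutral sphingomyelinase, was 0.27 and Smpd1, the acid sphingomyelinase, was 0.15 in Long Evans minus Fischer, and Degs1, which introduces the double bond of ceramide, was -0.25 in Long Evans minus Sprague Dawley. Of 7 genes of the glutamine transaminase and omega-amidase route, 4 were higher and 2 lower in Long Evans than in Fischer, and 3 were higher and 1 lower in Sprague Dawley than in Fischer. Nit1, the relative of Nit2, was -0.16 in Long Evans minus Fischer and -0.24 in Sprague Dawley minus Fischer, the opposite sign to Nit2. Got1, the cytosolic aspartate transaminase, was -0.19 and Gls2, a glutaminase, was 0.17 in Long Evans minus Fischer. Of 3 measured HtrA proteases, Htra1 was 0.22 and the mitochondrial Htra2 was -0.10 in Sprague Dawley minus Fischer, beside Htra4 at 1.05. The median size of difference in Long Evans minus Fischer was 0.0807 for the epoxygenases and epoxide hydrolases, 0.0842 for the RNase P and RNase MRP subunits, 0.117 for the aldo-keto reductases, 0.0776 for the sphingomyelin genes, 0.164 for the omega-amidase and glutamine transaminase route and 0.0735 for the HtrA serine proteases, against 0.095 for all probe sets. In Sprague Dawley minus Fischer the medians of the 6 lists were 0.0898, 0.0369, 0.0925, 0.0757, 0.0486 and 0.222 in the same order, against 0.060.

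Finally, the genes whose levels ran most like each of the 10 within strains were found by Pearson correlation over the 96 exposed and 23 control animals, after centring on strain and label numbers. The closest match of the set was Cdr2 with Sgms2 (r = 0.83), followed by Slc4a2, an anion exchanger, with Sgms2 (r = 0.81). Sgms2 also ran with the mean of 9 choroid plexus marker probe sets (r = 0.75), whose exposed levels ran from 7.02 through 8.93 to 10.94 in Long Evans, from 7.06 through 9.15 to 10.86 in Sprague Dawley and from 6.90 through 9.72 to 10.85 in Fischer. None of these 9 probe sets passed the exposed strain test in any pair of strains. Their median difference was -0.42 in Long Evans minus Fischer and -0.09 in Sprague Dawley minus Fischer. Their standard errors ran from 0.19 to 0.43, so a difference in choroid plexus content could have gone unseen. With the mean of the 9 probe sets as a covariate, added after results were seen, Sgms2 differed by -0.98 in Long Evans minus Fischer (adjusted p = 2.45e-38, limma). In Sprague Dawley minus Fischer it then differed by -0.90 (adjusted p = 7.10e-36, limma). Sgms2 ran as well with the means of 7 endothelial (r = 0.57) and 7 meningeal marker probe sets (r = 0.49), and Nit2 with the endothelial (r = 0.51) and choroid plexus means (r = 0.43). Of the endothelial probe sets, 3 were higher and 4 lower in Long Evans than in Fischer, 1 was higher in Sprague Dawley than in Fischer, and 1 was higher and 5 lower in Long Evans than in Sprague Dawley. Of the meningeal ones, 3 were higher and 1 lower, 2 were higher, and 1 was lower in the same comparisons. These counts are to be read against 61%, 40.8% and 61.4% of all probe sets that passed in the 3 comparisons. Over the alternatives run, the choroid plexus covariate among them, Nit2 differed by 1.14 to 1.25 in Long Evans minus Fischer and by 1.14 to 1.24 in Sprague Dawley minus Fischer. The part of these cells in the Sgms2 and Nit2 values was not tested beyond that covariate. By gene, Nit2 ran with Ska2 (r = 0.67) and Stk3 (r = 0.65), Cyp2j4 with Prkcq (r = 0.57) and Rnaset2 (r = 0.55), and Pop5 with Lsm11 (r = 0.55), a subunit of the particle that processes histone mRNA, and Spryd4 (r = 0.53). Akr1b10 ran against Or3a1e (r = -0.55) and Ms4a10 (r = -0.54), Scand1 against Strn (r = -0.45) and with Cd93 (r = 0.44), and Htra4 with Tshz3 (r = 0.51) and Npas2 (r = 0.50). Pbld1 ran with Aox1 (r = 0.48) and Gpr137b (r = 0.46).

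Ephx2 had weaker matches, Cpsf4 (r = 0.39) and Scara3 (r = 0.39). Scara3 lies on the same chromosome with 5 annotated genes between, and its correlation with Ephx2 was 0.66 in Long Evans, 0.18 in Sprague Dawley and -0.07 in Fischer. Ccdc107 ran against Gne (r = -0.52) and Ndufb6 (r = -0.40), both on its own chromosome with 30 and 77 annotated genes between. Among the 10 genes the closest pairs were Cyp2j4 with Nit2 (r = 0.49), Nit2 with Sgms2 (r = 0.45) and Cyp2j4 with Sgms2 (r = 0.42), and Ephx2 with Htra4 was -0.27. These correlations share arrays and tissue composition and are given without a test.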

How the data were processed

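Hippocampal RNA of 96 exposed and 23 control rats was hybridised to 1-colour Affymetrix Rat Gene arrays, 1 per animal. The authors deposited log2 values per probe set, made with RMA in Partek per the submitters' processing notes, with versions not given in the sources used here; the precision is limited by the number of arrays. Probe sets were named through the platform annotation and RefSeq's GRCr8 gene table. limma 3.58.1 in R 4.3.3 was fitted over all 29214 probe sets with Benjamini-Hochberg adjustment within a contrast. The Sprague Dawley male control group held 3 animals, 1 lower and 2 upper. Strain contrasts used the 96 exposed animals with label numbers (lower or upper 2 of a group's 4 successive numbers) as a term, and lead, dose, period and sex contrasts used 1 fit per strain. The spread test used absolute deviations from group and label numbers over all animals, controls included. Its deviations are dependent, so group as a random block was added after seeing results, as was the choroid plexus mean as a covariate. The scripts were tested on simulated data, where the spread test without the block called too many unchanged probe sets. The genes and lists were chosen with earlier results of these data known. Named besides the 10 genes were the 2 most correlated genes of each, up to 3 further genes per pathway list by size of strain difference, and neighbouring genes by size, Cyp2j10 being named after its values were seen because it alone reached 0.5, and Arhgef39 because it overlaps Ccdc107. Alternatives covered label numbers, quantile normalization, dim probe sets, array weights, arrays against their sex label, 1 fit of all animals, left-out animals, parts of the data and the gap.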

Additional observations from a re-analysis of the deposited data

Results flagged for a closer look

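In 28 of 290 groups of 4 animals (10 genes by 29 groups), 1 animal stood far from the other 3 relative to the range of the group, which is 9.66% where chance gives about 5%, or 1 in 20. Of these, 8 were in Long Evans, 11 in Sprague Dawley and 9 in Fischer, and all 10 genes had at least 1. In 8 of the 28 the animal's X-linked genes went against its sex label, 7 different arrays in all. Each value below is a log2 level, followed by the range of the other 3 animals of its group. Pop5 was 8.23 in Fischer female control replicate 3 (others 8.04 to 8.07), 8.14 in Fischer female perinatal 250 ppm replicate 2 (others 8.17 to 8.18), 10.07 in Long Evans male postnatal 250 ppm replicate 2 (others 10.24 to 10.27) and 7.84 in Sprague Dawley female perinatal 750 ppm replicate 4 (others 8.11 to 8.12). Cyp2j4 was 7.45 in Fischer female perinatal 750 ppm replicate 2 (others 7.69 to 7.71), 6.15 in Long Evans female control replicate 1 (others 6.39 to 6.41) and 6.20 in Long Evans male perinatal 250 ppm replicate 1 (others 6.43 to 6.46). Ephx2 was 7.47 in Sprague Dawley male perinatal 250 ppm replicate 2 (others 6.84 to 6.87) and 6.02 in Sprague Dawley female postnatal 750 ppm replicate 2 (others 6.97 to 7.04). Akr1b10 was 9.76 in Fischer male postnatal 250 ppm replicate 4 (others 9.98 to 9.99), 10.13 in Long Evans male control replicate 4 (others 10.01 to 10.02) and 8.48 in Sprague Dawley female perinatal 250 ppm replicate 4 (others 8.61 to 8.64). Pbld1 was 7.87 in Fischer male control replicate 2 (others 8.13 to 8.15), 8.41 in Fischer male perinatal 250 ppm replicate 4 (others 8.0 to 8.03), 7.96 in Fischer female perinatal 250 ppm replicate 3 (others 8.32 to 8.34), 8.36 in Fischer male perinatal 750 ppm replicate 1 (others 7.91 to 7.95) and 8.25 in Sprague Dawley male postnatal 750 ppm replicate 4 (others 8.55 to 8.58). Scand1 was 11.16 in Long Evans female control replicate 3 (others 11.31 to 11.33) and 9.33 in Sprague Dawley female control replicate 1 (others 9.72 to 9.76). Nit2 was 8.35 in Fischer female perinatal 750 ppm replicate 1 (others 8.56 to 8.57). Htra4 was 7.05 in Sprague Dawley male perinatal 750 ppm replicate 4 (others 9.47 to 9.56) and 9.72 in Sprague Dawley female postnatal 750 ppm replicate 4 (others 7.57 to 7.83). Sgms2 was 7.62 in Long Evans male postnatal 250 ppm replicate 3 (others 7.31 to 7.35) and 7.64 in Sprague Dawley male postnatal 750 ppm replicate 2 (others 7.22 to 7.28). Ccdc107 was 10.19 in Long Evans female perinatal 250 ppm replicate 3 (others 10.99 to 11.08), 10.85 in Long Evans female postnatal 250 ppm replicate 2 (others 11.01 to 11.04), 11.35 in Sprague Dawley female perinatal 750 ppm replicate 3 (others 10.72 to 10.79) and 10.76 in Sprague Dawley female postnatal 750 ppm replicate 4 (others 11.27 to 11.37). In log2 units the widest of these gaps were the 2 of Htra4.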

How the results depend on the processing

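The exposed strain differences of the 10 genes that had passed the test kept their direction under the alternatives run, with 4 exceptions in Long Evans minus Sprague Dawley. Cyp2j4 was -0.027 within males and -0.0016 at perinatal 250 ppm, Ephx2 was -0.11 and Sgms2 0.093 at postnatal 750 ppm. The number of genes that passed in that comparison was 8 (61.4% of all probe sets), against 5 at perinatal 250 ppm (29% of all) and 4 at postnatal 750 ppm (33% of all). For the mean lead effect in Long Evans the count was 0, and 0 to 1 when 1 animal was left out (0.0856% to 0.257% of all). In Sprague Dawley 1 fit of all animals gave 1 in the mean lead effect (0.0274% of all), namely Htra4 (adjusted p = 0.0022, limma). The same fit gave 1 over the 8 single Sprague Dawley contrasts (0.0137% of all). Array weights gave 1 (0.202% of all) for the difference of the lead effect in Long Evans minus Sprague Dawley. These effects are taken against the controls that chose the genes and are no independent support. The spread counts were 2 in Long Evans minus Fischer without the label number term (27.8% of all), 1 in Sprague Dawley minus Fischer with group as a random block (0.267% of all) and 2 in Long Evans minus Sprague Dawley without arrays against their sex label (6.05% of all). With 1 replicate number left out they were 1 to 2 (2.46% to 4.64% of all), 2 to 3 (1.58% to 1.78%) and 1 to 2 (4.25% to 5.19%) in the 3 comparisons. In Long Evans 2 genes parted into level classes at a gap of 0.3 (0.377% of all), 0 at 0.7 (0.0377% of all) and 0 without arrays against their sex label (0.116% of all), and in Sprague Dawley 0 at 0.7 (0.00685% of all). Without arrays against their sex label, the Long Evans values were centred anew, while their uncentred Ephx2 gap cannot narrow. The cause of the other changes was not tested. Cyp2j4 gave no value among probe sets above the 40th percentile, being dimmer. No paired analysis was possible because the label numbers name single animals and do not tie animals of different groups to each other. With 4 animals per group, litters not stated and probe sequences not used here, small differences, single-group lead effects and strain variants in probes could not be resolved.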
